A study of Mus musculus with 9 samples.

Results

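Rab genes encode small GTPases that mark the membranes of the secretory and endocytic pathways. They were taken as the protein-coding genes whose GENCODE M21 symbol is Rab followed by a number, with an optional letter and number after it. The rule found 59 of 21951 protein-coding genes, and 7 of the 59 (Rab3a, Rab3b, Rab3c, Rab3d, Rab27a, Rab27b and Rab37) belong to the branches known for regulated secretion. The other 52 act mostly in other steps of membrane traffic, although some of them also serve secretory granules or exocytosis.

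A Rab protein switches between a GTP-bound form, which recruits effectors to a membrane, and a GDP-bound form, which is kept soluble by a dissociation inhibitor. Exchange factors load GTP, GTPase activating proteins trigger its hydrolysis, and a prenyl group added with the help of escort proteins anchors the protein in the membrane. In the anterior pituitary, hormones are packed into dense-core granules, and Rab3 and Rab27 proteins are known for the docking and release of such granules.

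The study measured RNA by strand-specific RNA sequencing in the mouse pituitary before and after endocrine maturation. The embryo group held 7 Rathke's pouches, the epithelial primordium of the anterior pituitary, dissected at e13.5 from embryos carrying 1 Sox2Egfp allele (Sox2Egfp/+). The adult group held 2 pituitaries from animals aged 8 weeks, 1 male and 1 female, from which the posterior lobe had been removed. All animals were on a mixed 129Sv and c57BL6J background, each library came from 1 animal, and of the embryos 2 were male and 5 female, without the sex of each being given. The genotype of the adults is not given in the sources used here, and 2 adults give little information on the spread of adult values. Tissue, age and cell composition changed together, and in such bulk samples fewer cells of a type and less RNA per cell cannot be told apart.

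Between 16738863 and 28537311 read pairs were counted on genes in the embryos (median 24687556), and 36421545 and 31191117 in adults 1 and 2. In embryos 1 and 4 a lower share of the read pairs was counted, 59.7 and 62.8%, against 73.9 to 80.0% in the other embryos. Levels are CPM values, counts relative to the size of the library after TMM scaling. The limit that a count of 0 allows, set at 3 counts, came to 0.220 CPM or less in the embryos and 0.0843 CPM or less in the adults and covers counting error only, since copies made by PCR were not told apart. No pair of libraries of the same stage was alike within sampling noise (chi-square per degree of freedom of at least 44.5), and the correlation of log levels ran from 0.891 to 0.971 between embryos and was 0.976 between the adults.

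Markers of the cell types were read beside these libraries, and the gene with the highest mean CPM of each list is named. The 10 adult endocrine genes, led by Cga in the embryos and Gh in the adults, summed to 1195, 1813 and 2184 CPM in the lowest, median and highest embryo and to 155500.0 and 164157 CPM in the adults, with 8 of the 10 called higher in the adult. Gh itself stood at 0.0362, 0.297 and 1.90 CPM in the embryos and at 53470.4 and 63848 CPM in the adults. Both adults lay far above all embryos for Gh and for the sum, whereas Tshb overlapped between the stages. The 5 Rathke's pouch genes, led by Pitx1 in the embryos and Six6 in the adults, summed to 581, 1053 and 1295 CPM in the embryos and to 477 and 434 CPM in the adults, and 1 of the 5, Hesx1, was called higher in the embryo. Hesx1, an early pouch regulator, measured 11.0, 22.4 and 40.4 CPM in the embryos and 0.339 and 0.562 CPM in the adults. Sox2, a progenitor factor of the same list, went the other way, at 26.5, 39.4 and 44.8 CPM and 64.1 and 56.8 CPM, with a log2 fold change of 0.70 ± 0.25 (adjusted p = 0.0282), or 1.25 ± 0.18 after the correction (adjusted p = 1.71e-04). The embryos carried a Sox2Egfp allele and the adult genotype is not given, so stage and allele cannot be told apart for Sox2.

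Markers of other cells differed between libraries too. The 5 erythroid genes, led by Hbb-bs, summed to 68370.0 and 83308.5 CPM in embryos 1 and 4, to 1728 to 7493 CPM in the other embryos and to 762 and 1975 CPM in the adults, and 4 of the 5 were called higher in the embryo (5 with DESeq2). In the corrected edgeR fit 0 of the 5 erythroid genes were called, and 2 had an unadjusted p below 0.05. Embryos 1 and 4, which also had the low shares of counted read pairs, thus stood apart in blood transcripts. The 5 mesenchyme and fibroblast genes, led by Col1a2, summed to 374, 805 and 1259.9 CPM in the embryos and 585 and 374 CPM in the adults (3 called higher in the embryo). The 5 endothelial genes, led by Cdh5 in the embryos and Plvap in the adults, summed to 108, 155 and 392 CPM and 154 and 98.5 CPM, with 0 of 5 called by edgeR or DESeq2. At an unadjusted p below 0.05 there were 2 endothelial genes lower in the adult, Pecam1 (adjusted p = 0.0263) and Cdh5 (adjusted p = 0.00668), which also passed the adjusted p with separate groups, and in the corrected fit 3 were lower and 1 higher. The sums of the mesenchymal and endothelial lists overlapped between the stages. The 5 macrophage and leukocyte genes, led by C1qb in the embryos and Csf1r in the adults, summed to 93.7, 115 and 235 CPM in the embryos and 73.1 and 111 CPM in the adults, with 1 of 5 called higher in the adult (0 in the corrected edgeR fit, in which 2 had an unadjusted p below 0.05). The 5 neuronal genes, led by Tubb3, summed to 41.5, 75.0 and 304 CPM and 119 and 86.8 CPM, with Neurod6 at 0 in all 9 libraries and 1 of the 4 tested called higher in the adult. Embryo 2 was the highest embryo for both of these lists, and also for the endothelial (392 CPM) and mesenchymal (1259.9 CPM) sums. It was the highest as well for the posterior lobe and hypothalamus sum (135 CPM) and the lowest for the Rathke's pouch sum (581 CPM). The 5 posterior lobe and hypothalamus genes, led by Rax in the embryos and Gfap in the adults, summed to 46.8, 70.0 and 135 CPM in the embryos, where Avp was at 0, and to 17.2 and 25.5 CPM in the adults (3 called higher in the adult, 2 in the embryo). The 5 melanocyte genes, led by Mitf, summed to 0.917, 3.04 and 4.56 CPM and 6.11 and 7.45 CPM, with Tyrp1 at 0 in every embryo, Tyr at 0 in both adults and 1 of the 3 tested called higher in the adult. The called gene was Tyrp1, with 12 to 35 counts in the adults. Like Avp, it passed the filter on mean counts through the adults alone. So did Oxt and, among the endocrine genes, Lhb, with at most 4 and 6 counts in an embryo. None of these calls is read as a result. The part of these cell types in the results on Rab genes was not tested.

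The comparison asked which Rab genes differ between the e13.5 primordium and the mature gland. The filter, a mean of 5 or more counts, was passed by all 59 and by 19371 genes in all. A gene was called when its adjusted p (edgeR quasi-likelihood test, Benjamini-Hochberg over the 19371 genes) was below 0.05 and its fold change above 4. Log2 fold changes are adult over embryo and are given ± SE, so that positive values are higher in the adult.

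Of the 59 Rab genes, 4 were called higher in the adult (6.78%), namely Rab3c, Rab9b, Rab27a and Rab27b, against 14.6% of all genes tested. A further 6 (10.2%) were called higher in the embryo, namely Rab33a, Rab38, Rab37, Rab13, Rab15 and Rab29, against 11.3% of all genes tested. Without a threshold on fold change, 19 rose (32.2%, against 27.4% of all genes), 12 fell (20.3%, against 24.0%) and 28 did not pass. Both adults lay above all 7 embryos for 23 members (39.0%, against 32.9% of all genes) and below all of them for 15 (25.4%, against 26.2%), and the groups overlapped for 21. The median log2 fold change was 0.31 over the Rab genes and 0.04 over all genes tested. Among the protein-coding genes tested it was 0.12. The share called higher in the adult was thus lower than that of all genes, and the other shares were nearer to theirs.

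The 7 secretory genes and the 52 others were then counted apart. Of the secretory genes 5 rose (71.4%, against 27.4% of all genes), 1 fell (14.3%, against 24.0%) and 1 (Rab3b) did not pass. Their median was 1.50, and 3 were called higher in the adult (42.9%, against 14.6%). Of the others 14 rose (26.9%), 11 fell (21.2%) and 27 did not pass, with a median of -0.00365. Of these 52 genes 1 was called higher in the adult (1.92%, against 14.6%) and 5 in the embryo (9.62%, against 11.3%). With scaling by library size alone the median of all genes moved from 0.04 to 0.26 and that of the other Rab genes to 0.19. The small negative median of the other genes also turned positive under the DESeq2 test, at 0.0281, and after the correction described next, at 0.12.

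Fold changes followed transcript length in these libraries. Across all genes tested, Spearman's rho of the log2 fold change with transcript length was 0.388, and across the 59 Rab genes it was 0.405, genes not being independent replicates. With GC content it was -0.198 and -0.359. Each library was therefore also corrected for length and GC content, after which rho with length was -0.063 and -0.082. The corrected fit called 4 of the 59 Rab genes higher in the adult and 5 in the embryo, against 2383 and 1671 of all 19371 genes. Of these Rab calls 7 were shared with the uncorrected ones. Rab27b, Rab13 and Rab29 fell short of a fold change of 4, and Rab3a and Rab18 came past it. In that fit 19 Rab genes rose and 17 fell without a threshold on fold change, and of the other 52 genes 14 rose and 16 fell. Of all 19371 genes tested, 4593 rose and 4804 fell in that fit, so that more fell than rose there too. The corrected counts by role given below stand beside these numbers. The median log2 fold change in the corrected fit was 0.19 over the Rab genes, 1.51 over the secretory ones and -0.045 over all genes. The log2 fold change of 9 members changed sign, and 1 of the 9, Rab14, passed the adjusted p in both fits with opposite signs. The part of RNA quality or library preparation in the length trend was not tested.

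**Figure D1:**
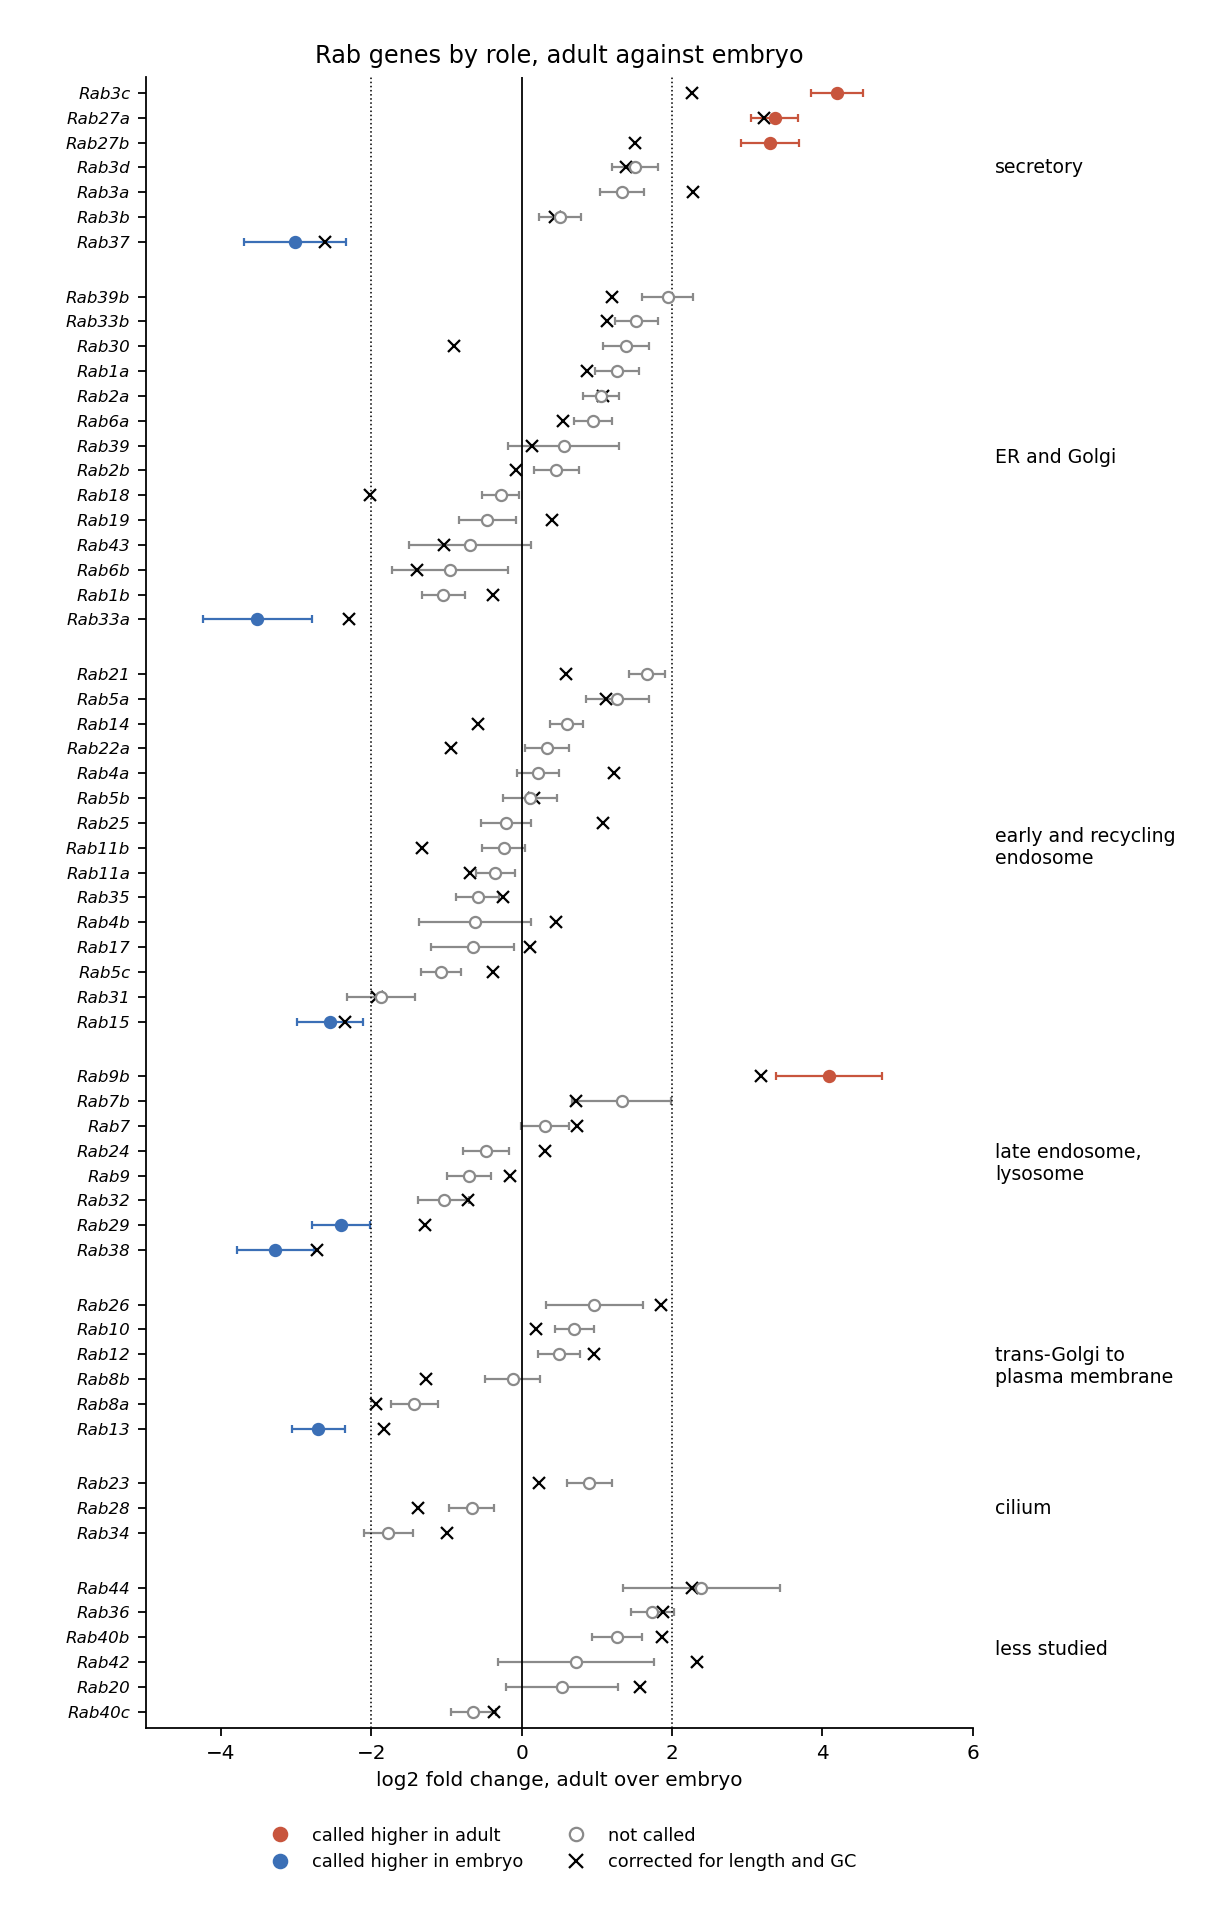
Log2 fold change (adult over embryo, horizontal axis) of the 59 Rab genes, ordered within each role, from 7 embryo and 2 adult libraries. Circles are the fitted values with bars of 1 SE, filled where called, crosses are the values corrected for transcript length and GC content, and dotted lines mark fold changes of 4. The secretory group holds 3 of the 4 genes called higher in the adult.

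Among the secretory genes, Rab27a changed most in absolute level. Rab27a (chr9:73044854-73097629, plus strand, GRCm38) docks secretory granules and melanosomes at the plasma membrane. It was expressed at 12.9, 19.6 and 35.0 CPM in the lowest, median and highest embryo and at 224 and 237 CPM in adults 1 and 2. Both adults lay far above every embryo, of which embryo 7 was the highest and embryo 4 the lowest. The log2 fold change was 3.36 ± 0.31 (adjusted p = 1.96e-06), a 10.3-fold higher level in the adult, and 3.22 ± 0.24 after the correction (adjusted p = 1.67e-06). Per kb of exon, Rab27a went from 5.77 ± 2.14 CPM (mean ± SD, n = 7) to 59.5 ± 2.29 CPM (n = 2), from place 35 to place 5 among the 59 genes.

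Rab27b, its close relative with a similar role, measured 2.96, 4.71 and 9.53 CPM in the embryos and 49.3 and 62.5 CPM in the adults. The groups did not overlap, and embryo 7 was again the highest embryo. The log2 fold change was 3.30 ± 0.39 (adjusted p = 1.50e-05). It was 1.51 ± 0.28 after the correction (adjusted p = 9.03e-04), which ended the call on fold change and kept the direction. Rab27b therefore rose in both fits, by an amount that depended on how length and GC content were treated.

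Rab3c (chr13:110054187-110280996, minus strand), a Rab3 isoform found on synaptic and secretory vesicles, had the largest log2 fold change of all Rab genes in the uncorrected fit. It measured 1.62, 2.93 and 5.89 CPM in the embryos and 57.4 and 67.3 CPM in the adults, for a log2 fold change of 4.19 ± 0.35 (adjusted p = 9.86e-07). All embryos lay below both adults, and embryo 6 was the highest of them. The corrected value was 2.26 ± 0.32 (adjusted p = 1.62e-04), still called and below those of Rab27a, Rab9b and Rab3a among the called genes. Per kb Rab3c remained a minor isoform, at 0.284 ± 0.119 CPM in the embryo and 5.17 ± 0.582 CPM in the adult, since its merged exons span 12049 bases.

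The other Rab3 genes moved less. Rab3d, known from the granules of exocrine and other secretory cells, stood at 15.2, 27.1 and 38.0 CPM in the embryos and 75.6 and 75.3 CPM in the adults and rose by a log2 fold change of 1.50 ± 0.30 (adjusted p = 0.00100). Rab3a, the main Rab3 protein of neuronal synapses and also found in endocrine cells, stood at 17.2, 25.8 and 37.5 CPM and 65.0 and 66.2 CPM and rose by 1.34 ± 0.29 (adjusted p = 0.00187). For both genes the 2 adults were close together and above all embryos, with fold changes below 4. After the correction Rab3a was called, at 2.27 ± 0.22 (adjusted p = 1.09e-05), whereas Rab3d was at 1.38 ± 0.28. Rab3b, an isoform known from endocrine cells of the pituitary, measured 50.7, 93.2 and 114 CPM in the embryos and 122 and 129 CPM in the adults, with a log2 fold change of 0.51 ± 0.28 (adjusted p = 0.146). Its adult values lay just above the highest embryo, and the difference did not pass the test in either fit.

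Rab37 (chr11:115091431-115162236, plus strand), described on mast cell and other secretory granules, went the other way. It measured 1.10, 4.09 and 4.70 CPM in the embryos and 0.533 and 0.337 CPM in the adults, from 15 counts in the lowest embryo and 12 to 22 counts in the adults. All embryos lay above both adults, embryo 1 being the lowest. The log2 fold change was -3.01 ± 0.68 (adjusted p = 0.00208) and -2.62 ± 0.59 after the correction. The call did not hold when the fold change itself was tested against 4 (adjusted p = 0.129).

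**Figure D2:**
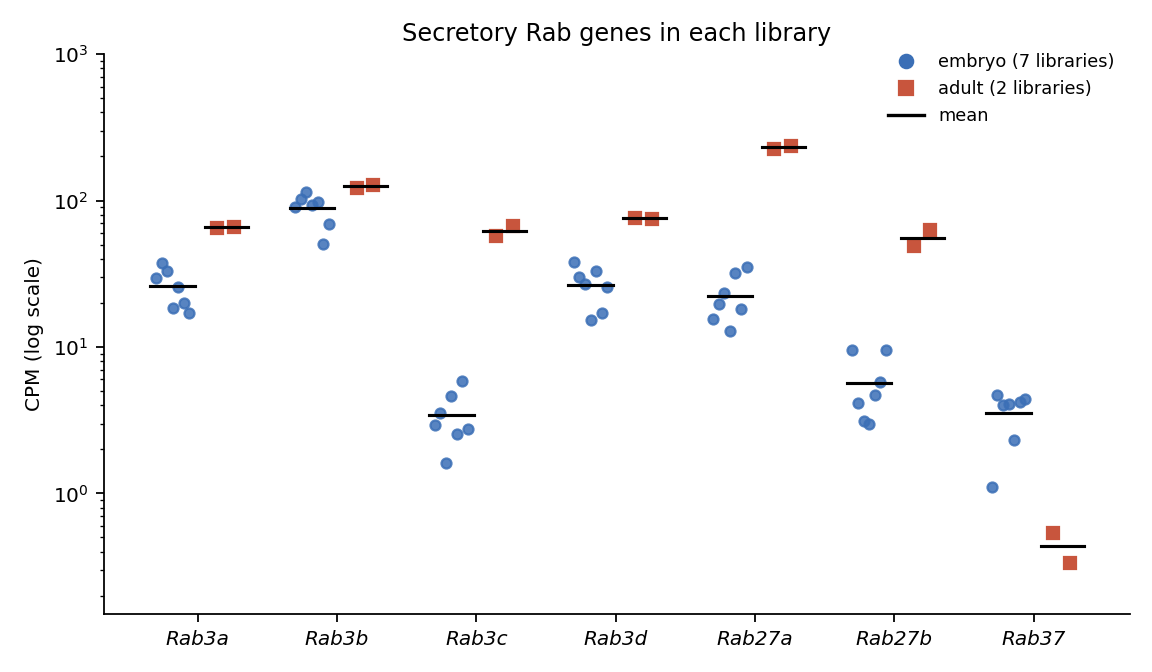
CPM (log scale) of the 7 secretory Rab genes in each of 7 embryo libraries (circles) and 2 adult libraries (squares), with horizontal lines at the group means. Both adults lie above all embryos for 6 of the genes (85.7%, against 32.9% of all genes) and below them for Rab37 (14.3%, against 26.2%).

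The make-up of the secretory transcripts changed with stage. Compared per kb, the 7 genes held 3.43, 5.57 and 5.81% of the Rab transcripts in the lowest, median and highest embryo (5.02 ± 0.865%, mean ± SD, n = 7) and 14.4 and 15.5% in the adults (14.9 ± 0.771%, n = 2). The share was higher in both adults than in any embryo. Within it, Rab3b held 42.4, 48.7 and 61.3% in the embryos, against 23.2 and 23.3% in the adults, and Rab27a held 7.51, 9.94 and 20.2% and 38.8 and 39.0%. Rab3b was thus the leading secretory Rab transcript in every embryo and Rab27a in both adults. Rab3a held 17.3, 24.3 and 28.2% in the embryos, against 19.6 and 19.0% in the adults, which overlapped. The summed level of all 59 genes was 1000.5 ± 64.9 CPM per kb in the embryo and 1027 ± 17.4 CPM per kb in the adult, so that this total differed by less than the spread between embryos. Without length scaling the sum was 3084 ± 227 CPM in the embryo and 3501 ± 13.9 CPM in the adult, with both adults above all embryos.

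Windows around the start of transcription were read for the members that were called, to show the sequence in front of the genes that changed. RefSeq tables on GRCm38.p6 held windows of 250 bases before to 50 bases after a start for 48 of the 59 members (60 windows). Of the called members 7 had a window (Rab3c, Rab9b, Rab27a, Rab29, Rab15, Rab13 and Rab33a). Both strands were searched for letters known from factors of the pituitary or from general promoters. The Lhx factors bind TAATTA, which was present in 5.29% of all 32851 windows. The letters searched for Pou1f1, the factor of the somatotroph lineage, were TATNCAT, and 8.84% of windows held them. The cyclic AMP response element, TGACGTCA, occurred in 1.79%. The E-box searched was CACGTG, which occurred in 7.15%. Of the general promoter elements, the GC box was searched as GGGCGG and was present in 35.7%. The letters of the TATA box were TATAAA, in 13.6%. In the 7 windows only the GC box was found, in Rab3c, Rab9b, Rab27a and Rab15. It was present in 68.3% of the 60 Rab windows. No overlap with another of these motifs occurred there, and a match in letters is a description and not a bound site.

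The windows of the 4 genes with a GC box are given with the box in capitals (GGGCGG, or CCGCCC where it lies on the other strand), 5′ to 3′ on the strand of the gene. They lie at chr9:73044560-73044859, plus strand (Rab27a), chr13:110280157-110280456, minus strand (Rab3c), chrX:136868507-136868806, minus strand (Rab9b) and chr12:76822475-76822774, minus strand (Rab15). With the start base counted as 0, the box began at -13 in Rab27a, at -118 in Rab3c, at -66 in Rab9b and at -131, -124, -60 and -42 in Rab15. The RefSeq start of Rab3c lay 790 bases from the outermost start in GENCODE.
Rab27a: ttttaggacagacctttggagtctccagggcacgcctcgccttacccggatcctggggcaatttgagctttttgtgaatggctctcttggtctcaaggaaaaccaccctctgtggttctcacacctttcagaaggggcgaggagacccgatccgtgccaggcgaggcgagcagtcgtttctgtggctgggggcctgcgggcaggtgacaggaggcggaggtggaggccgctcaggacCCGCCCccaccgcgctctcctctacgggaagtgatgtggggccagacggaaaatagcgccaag
Rab3c: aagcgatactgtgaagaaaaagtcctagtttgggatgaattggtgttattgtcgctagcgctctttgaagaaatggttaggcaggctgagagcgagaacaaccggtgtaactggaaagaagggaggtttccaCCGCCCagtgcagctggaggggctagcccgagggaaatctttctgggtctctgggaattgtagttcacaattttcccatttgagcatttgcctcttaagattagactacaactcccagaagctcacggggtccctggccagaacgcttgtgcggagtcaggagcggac
Rab9b: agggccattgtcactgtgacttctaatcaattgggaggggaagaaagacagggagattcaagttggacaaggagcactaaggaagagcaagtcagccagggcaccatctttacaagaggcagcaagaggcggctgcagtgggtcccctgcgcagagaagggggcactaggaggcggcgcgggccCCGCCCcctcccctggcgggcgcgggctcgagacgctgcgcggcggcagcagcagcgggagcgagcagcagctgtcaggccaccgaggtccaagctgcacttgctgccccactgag
Rab15: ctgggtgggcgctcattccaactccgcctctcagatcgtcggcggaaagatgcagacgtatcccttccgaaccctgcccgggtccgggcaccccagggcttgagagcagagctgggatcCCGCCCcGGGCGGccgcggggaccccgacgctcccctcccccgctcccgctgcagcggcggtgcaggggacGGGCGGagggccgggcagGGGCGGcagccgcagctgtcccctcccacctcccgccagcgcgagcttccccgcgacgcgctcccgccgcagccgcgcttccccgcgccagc
The windows of the 4 called genes higher in the embryo had 38 (Rab15), 25 (Rab13), 12 (Rab29) and 7 (Rab33a) CpG dinucleotides and a GC content of 45.3 to 76.3%. Those of the 3 genes higher in the adult had 11 to 18 and 50.7 to 64.3%, within the range of the others.

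Rab genes of the endoplasmic reticulum (ER) and Golgi apparatus numbered 14, of which 6 rose (42.9%, against 27.4% of all genes), 2 fell (14.3%, against 24.0%) and 6 did not pass (median 0.51, or 0.028 in the corrected fit, where 4 rose and 2 fell). Rab1a and Rab1b both act in transport from the ER to the Golgi. Rab1b was the most abundant Rab gene per kb in the embryo, at 129 ± 25.5 CPM, and stood at 62.8 ± 4.53 CPM in the adult. In CPM it measured 215, 298 and 398 in the embryos, against 150.0 and 135 in the adults, and fell by a log2 fold change of -1.04 ± 0.29 (adjusted p = 0.00746). Rab1a measured 77.1, 91.5 and 174 CPM in the embryos and 261 and 245 CPM in the adults and rose by 1.27 ± 0.29 (adjusted p = 0.00246). The groups did not overlap for either gene, and their directions were opposite. After the correction Rab1a stood at 0.86 ± 0.24 (adjusted p = 0.0112) and Rab1b at -0.38 ± 0.19, no longer past the adjusted p (adjusted p = 0.110).

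Rab2a, which acts at the ER to Golgi interface and in the maturation of dense-core vesicles, was the most abundant Rab gene per kb in the adult (146 ± 10.4 CPM, against 70.4 ± 13.1 CPM in the embryo). It measured 109.7, 158 and 193 CPM in the embryos and 328 and 297 CPM in the adults, a log2 fold change of 1.06 ± 0.24 (adjusted p = 0.00256), and 1.08 ± 0.20 after the correction. Every embryo was below both adults. Rab39b, an X-linked gene known from neurons, measured 4.39, 8.12 and 11.9 CPM and 27.7 and 32.6 CPM, and rose by 1.94 ± 0.34 (adjusted p = 4.04e-04). Its fold change lay just under 4, and it was called without embryo 7 (2.07), without adult 1 (2.07), with scaling by library size alone (2.12) and on counts without regard to strand (2.12). After the correction it was lower, at 1.202 ± 0.29 (adjusted p = 0.00517). Rab33b, a Golgi Rab with a part in autophagosome formation, measured 9.74, 16.0 and 23.7 CPM and 45.1 and 45.8 CPM and rose by 1.52 ± 0.29 (adjusted p = 6.28e-04), or 1.13 ± 0.21 after the correction.

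Rab33a (chrX:48519285-48530232, plus strand), its X-linked relative, fell. It measured 1.61, 4.63 and 5.08 CPM in the embryos and 0.461 and 0.169 CPM in the adults, where 6 to 19 counts were recorded. The embryos lay above both adults, with embryo 1 the lowest. The log2 fold change was -3.52 ± 0.72 (adjusted p = 0.00115) and -2.29 ± 0.59 after the correction, and the gene was not tested where at least 10 counts were required in every library. Over the alternative settings the value for Rab33a ran from -4.39 to -2.29. Rab18, a Rab of lipid droplets and the ER, and Rab30, a Golgi Rab, were chosen after their values were seen, for their change with the correction. Rab18 measured 68.7, 83.5 and 101 CPM in the embryos and 64.0 and 72.3 CPM in the adults, with overlapping groups and a log2 fold change of -0.28 ± 0.24 (adjusted p = 0.351). The corrected value was -2.02 ± 0.27 (adjusted p = 9.13e-05), which was called. Rab30 measured 6.25, 8.37 and 12.2 CPM and 21.6 and 27.2 CPM, with a log2 fold change of 1.39 ± 0.31 (adjusted p = 0.00195), and its corrected value was -0.90 ± 0.38 (adjusted p = 0.0679). The transcripts of both are long, 6515 and 9456 bases in the longest annotated form, and their direction or size cannot be given apart from how length and GC content were treated.

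Rab genes of early and recycling endosomes numbered 15, of which 3 rose (20.0%, against 27.4% of all genes), 3 fell (20.0%, against 24.0%) and 9 did not pass (median -0.24, corrected -0.25). In the corrected fit 4 of the 15 rose and 6 fell, against 4593 and 4804 of all 19371 genes tested. Rab15 (chr12:76797960-76822908, minus strand), which acts in recycling from early endosomes, measured 48.3, 75.9 and 144 CPM in the embryos and 13.5 and 16.3 CPM in the adults. The embryos lay above both adults, and embryo 3 was the highest. It fell by a log2 fold change of -2.55 ± 0.44 (adjusted p = 3.28e-04) and -2.35 ± 0.39 after the correction, whereas a test of the fold change against 4 gave an adjusted p of 0.185. Rab31, which acts between the trans-Golgi and endosomes, measured 32.1, 59.9 and 128 CPM in the embryos, with embryo 2 the highest, and 20.9 and 16.1 CPM in the adults. It fell by -1.87 ± 0.46 (adjusted p = 0.00370), and its fold change passed 4 without embryo 1 (-2.04), without embryos 1 and 4 (-2.10) and without adult 1 (-2.06).

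Rab5c, 1 of the 3 Rab5 genes of early endosome fusion, was the second most abundant Rab gene per kb in the embryo (90.7 ± 14.5 CPM, 42.9 ± 1.04 CPM in the adult). It measured 153, 186 and 239 CPM in the embryos and 95.8 and 92.5 CPM in the adults, and fell by -1.08 ± 0.27 (adjusted p = 0.00390), or -0.39 ± 0.18 after the correction (adjusted p = 0.0871). Rab21, which acts in integrin traffic through early endosomes, measured 20.8, 31.0 and 37.1 CPM and 91.6 and 95.5 CPM and rose by 1.66 ± 0.24 (adjusted p = 8.23e-05), or 0.59 ± 0.21 after the correction. Neither gene had overlapping groups. Rab14, of endosome to Golgi traffic, and Rab25, an epithelial recycling Rab, were chosen after their values were seen. Rab14 measured 101, 118 and 136 CPM in the embryos and 184 and 175 CPM in the adults, with a log2 fold change of 0.60 ± 0.22 (adjusted p = 0.0336) that became -0.58 ± 0.19 after the correction (adjusted p = 0.0245). Rab25 measured 33.9, 47.7 and 80.2 CPM and 50.5 and 39.5 CPM with overlapping groups, at -0.21 ± 0.33 (adjusted p = 0.608) before and 1.08 ± 0.24 (adjusted p = 0.00272) after it. Rab22a, chosen in the same way, went from 0.34 ± 0.29 (adjusted p = 0.350) to -0.94 ± 0.24 (adjusted p = 0.00731). For these 3 genes the direction thus depended on the treatment of length and GC content.

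Rab genes of late endosomes, lysosomes and lysosome-related organelles numbered 8, of which 1 rose (12.5%, against 27.4% of all genes), 3 fell (37.5%, against 24.0%) and 4 did not pass (median -0.58, which turned to 0.073 with the correction, where 2 rose and 3 fell). Rab9b (chrX:136858147-136868755, minus strand), an X-linked relative of the Rab9 protein that returns mannose 6-phosphate receptors to the Golgi, was at 0, 0.635 and 1.61 CPM in the embryos and at 13.8 and 11.5 CPM in the adults. No counts were recorded in embryo 3, where the floor was 0.122 CPM, and both adults lay above every embryo. The log2 fold change was 4.08 ± 0.71 (adjusted p = 3.35e-04) and 3.18 ± 0.71 after the correction. The gene was not tested where at least 10 counts were required in every library.

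Rab38 and Rab29 fell. Rab38 (chr7:88430273-88491572, plus strand), which serves melanosomes and other lysosome-related organelles, measured 10.1, 23.0 and 34.1 CPM in the embryos and 2.79 and 1.77 CPM in the adults, a log2 fold change of -3.28 ± 0.51 (adjusted p = 1.52e-04), and -2.72 ± 0.43 after the correction. Melanocyte markers were at most 4.56 CPM in sum in the embryos, and the part of melanocytes in the level of Rab38 was not tested. Rab29 (chr1:131867224-131872887, plus strand), a lysosomal and Golgi Rab that recruits the kinase Lrrk2, measured 16.6, 22.6 and 35.3 CPM and 3.76 and 4.92 CPM and fell by -2.40 ± 0.39 (adjusted p = 1.97e-04). Its corrected value of -1.29 ± 0.25 (adjusted p = 0.00134) fell short of a fold change of 4, and a test of the fold change against 4 gave an adjusted p of 0.256. For both genes every embryo was above both adults. Rab7, the general Rab of late endosomes and lysosomes, was abundant at both stages, at 53.4 ± 15.4 CPM per kb in the embryo and 66.3 ± 0.741 CPM per kb in the adult. In CPM it measured 66.7, 155 and 172 in the embryos, with embryo 1 the lowest, and 174 and 172 in the adults, with a log2 fold change of 0.31 ± 0.32 (adjusted p = 0.435) and groups that overlapped. After the correction it passed the adjusted p, at 0.73 ± 0.23 (adjusted p = 0.0204).

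The 6 genes of transport from the trans-Golgi to the plasma membrane included 1 that rose (16.7%, against 27.4% of all genes), 2 that fell (33.3%, against 24.0%) and 3 that did not pass (median 0.19, which turned to -0.55 with the correction, where 2 rose and 3 fell). Rab13 (chr3:90213695-90226385, plus strand), known from the assembly of epithelial tight junctions, measured 22.5, 27.4 and 41.8 CPM in the embryos and 3.93 and 4.98 CPM in the adults. All embryos lay well above both adults. It fell by a log2 fold change of -2.71 ± 0.35 (adjusted p = 3.72e-05), and the corrected value was -1.83 ± 0.30 (adjusted p = 4.18e-04), short of a fold change of 4. In a test of the fold change against 4 its adjusted p was 0.0511. Rab8a, of exocytosis and ciliary membranes, and Rab10, of exocytic and basolateral traffic, completed the genes of this role that passed and were chosen after their values were seen. Rab8a measured 122, 189.7 and 255 CPM and 70.1 and 72.5 CPM and fell by -1.43 ± 0.31 (adjusted p = 0.00183), whereas Rab10 measured 68.4, 82.2 and 127 CPM and 145 and 134 CPM and rose by 0.70 ± 0.26 (adjusted p = 0.0338). After the correction Rab10 was at 0.19 ± 0.20 and no longer passed (adjusted p = 0.451).

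Of the 3 genes of the cilium 1 rose (33.3%, against 27.4% of all genes), 1 fell (33.3%, against 24.0%) and 1 did not pass. In the corrected fit 2 fell (Rab34 and Rab28), against 4804 of all 19371 genes tested. Rab34, needed for the first steps of ciliogenesis in many cells, was the fourth most abundant Rab gene per kb in the embryo (56.8 ± 13.8 CPM, 16.6 ± 3.01 CPM in the adult). It measured 88.1, 135 and 189.8 CPM in the embryos and 44.6 and 34.4 CPM in the adults and fell by -1.78 ± 0.32 (adjusted p = 5.07e-04), or -1.001 ± 0.20 after the correction. Rab23, a negative regulator of Hedgehog signalling, and Rab28, known from photoreceptor cilia, were chosen after their values were seen, to complete this role. Rab23 measured 10.3, 14.6 and 22.9 CPM and 29.9 and 28.1 CPM and rose by 0.90 ± 0.30 (adjusted p = 0.0214), but was at 0.23 ± 0.21 after the correction (adjusted p = 0.391). Rab28 measured 67.8, 113 and 150.1 CPM and 68.7 and 76.2 CPM, with overlapping groups, at -0.67 ± 0.30 (adjusted p = 0.0737) before and -1.38 ± 0.37 (adjusted p = 0.00845) after it.

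Of the 6 less studied genes 2 rose (33.3%, against 27.4% of all genes) and 4 did not pass (median 0.99, corrected 1.87). Rab36 measured 9.61, 17.8 and 23.1 CPM in the embryos and 64.4 and 54.8 CPM in the adults and rose by 1.74 ± 0.28 (adjusted p = 2.24e-04), or 1.88 ± 0.21 after the correction. Rab40b, whose protein binds Cullin5 through a SOCS box, was chosen after its values were seen. It measured 4.23, 6.13 and 8.62 CPM and 15.1 and 15.9 CPM and rose by 1.26 ± 0.33 (adjusted p = 0.00599), or 1.86 ± 0.27 after the correction. The groups were separate for both genes.

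Summed by role and compared per kb, ER and Golgi genes held 24.9, 28.1 and 32.3% of the Rab transcripts in the embryos, against 35.7 and 34.7% in the adults. Genes of early and recycling endosomes held 29.6, 32.3 and 35.2% and 24.6 and 24.9%. The first share was higher in both adults than in any embryo and the second lower. The genes of the cilium held 6.80, 8.35 and 10.3% in the embryos, against 3.61 and 3.42% in the adults, mostly Rab34 and Rab28. Late endosomal and lysosomal genes held 11.7, 12.7 and 16.2% and 10.4 and 10.4%, and genes of transport from the trans-Golgi to the plasma membrane 8.51, 9.90 and 11.1% and 8.39 and 8.26%. These 3 shares were lower in both adults than in every embryo. The less studied genes held 1.62, 2.38 and 2.99% and 2.95 and 2.79%, which overlapped.

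**Figure D3:**
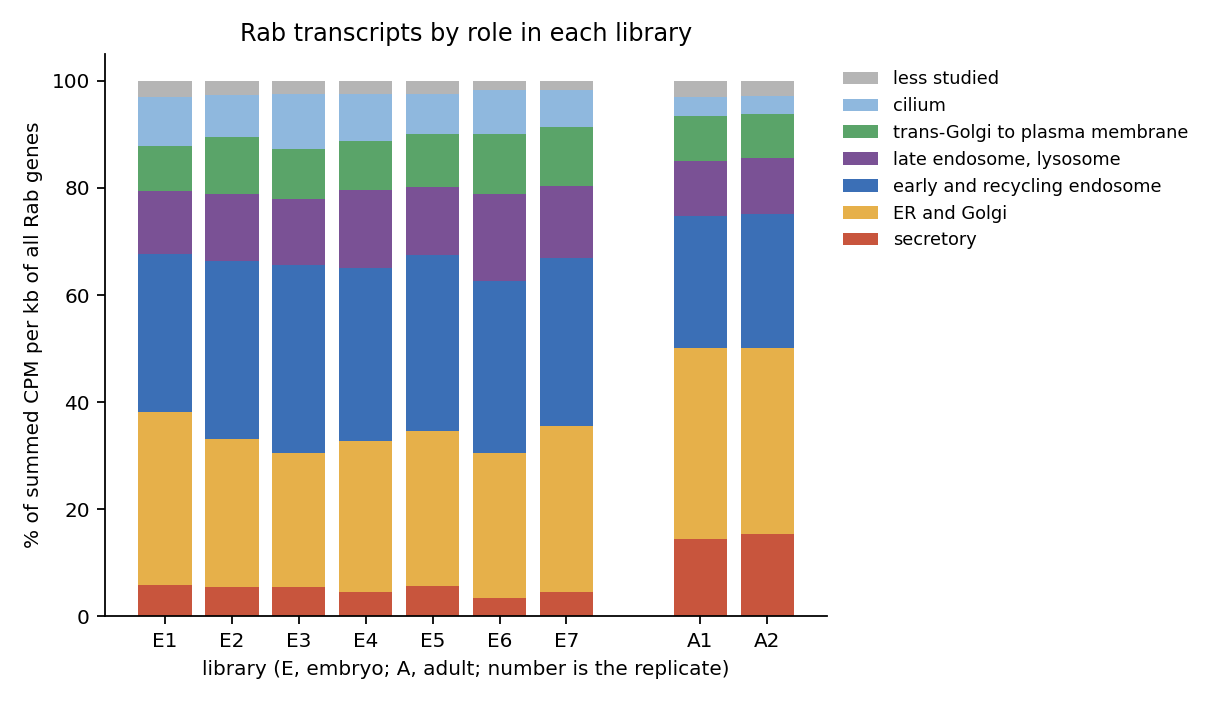
Share of the summed CPM per kb of all 59 Rab genes held by each role (stacked bars, %, vertical axis) in the 7 embryo libraries (E1 to E7) and 2 adult libraries (A1 and A2). The secretory share is 3.43 to 5.81% in the embryos, against 14.4 and 15.5% in the adults.

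Of the 42 Rab numbers, 14 were shared by 2 or more genes, 31 genes in all, whose proteins are close relatives. Per kb, Rab1a held 10.4, 14.9 and 32.6% of the Rab1 transcripts in the lowest, median and highest embryo and 51.0 and 52.0% in the adults. Rab5a held 2.20, 3.55 and 8.36% of the Rab5 transcripts in the embryos, against 14.5 and 13.6% in the adults, while Rab5c went from 64.9, 72.2 and 81.2% to 49.6 and 47.9%. Rab33a held 23.7, 47.4 and 61.5% of the Rab33 transcripts in the embryos, against 3.02 and 1.11% in the adults. The shares did not overlap between the stages for 8 of the 14 numbers (1, 2, 3, 5, 8, 9, 33 and 40) and overlapped for the other 6. Levels of single genes were often separate too, with both adults above all embryos for 32.9% of all genes tested and below for 26.2%. The count of 8 is therefore not read as a result about these families. Rab9b held 0, 0.699 and 1.83% of the Rab9 transcripts in the embryos, against 20.6 and 19.2% in the adults, and Rab40b 9.92, 19.4 and 21.9% of the Rab40 transcripts and 41.6 and 45.1%. By contrast Rab27a held 81.8, 92.3 and 95.4% of the Rab27 transcripts in the embryos, against 92.6 and 91.3% in the adults, which overlapped. With levels corrected for length and GC content, Rab27a held 89.5 ± 2.45% in the embryo and 96.6 ± 0.227% in the adult, so that the ratio of Rab27a to Rab27b depended on that treatment. The corrected shares of Rab1a were 20.1 ± 4.81% in the embryo and 37.3 ± 0.770% in the adult, and those of Rab9b 1.08 ± 0.848% in the embryo and 10.2 ± 0.639% in the adult. The adult share of Rab9b was thus lower with the correction and still above that of the embryo. The corresponding shares of Rab33a were 35.2 ± 10.8% in the embryo and 4.76 ± 2.99% in the adult. Those of Rab3a among the Rab3 transcripts were 24.1 ± 4.90% in the embryo and 47.6 ± 0.480% in the adult. Before the correction they were 26.8 ± 4.16% and 33.4 ± 0.406%. With the correction Rab3a thus exceeded Rab3b in the adult, where Rab3b held 34.0 ± 0.635%. Rab5a was chosen after its values were seen.

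**Figure D4:**
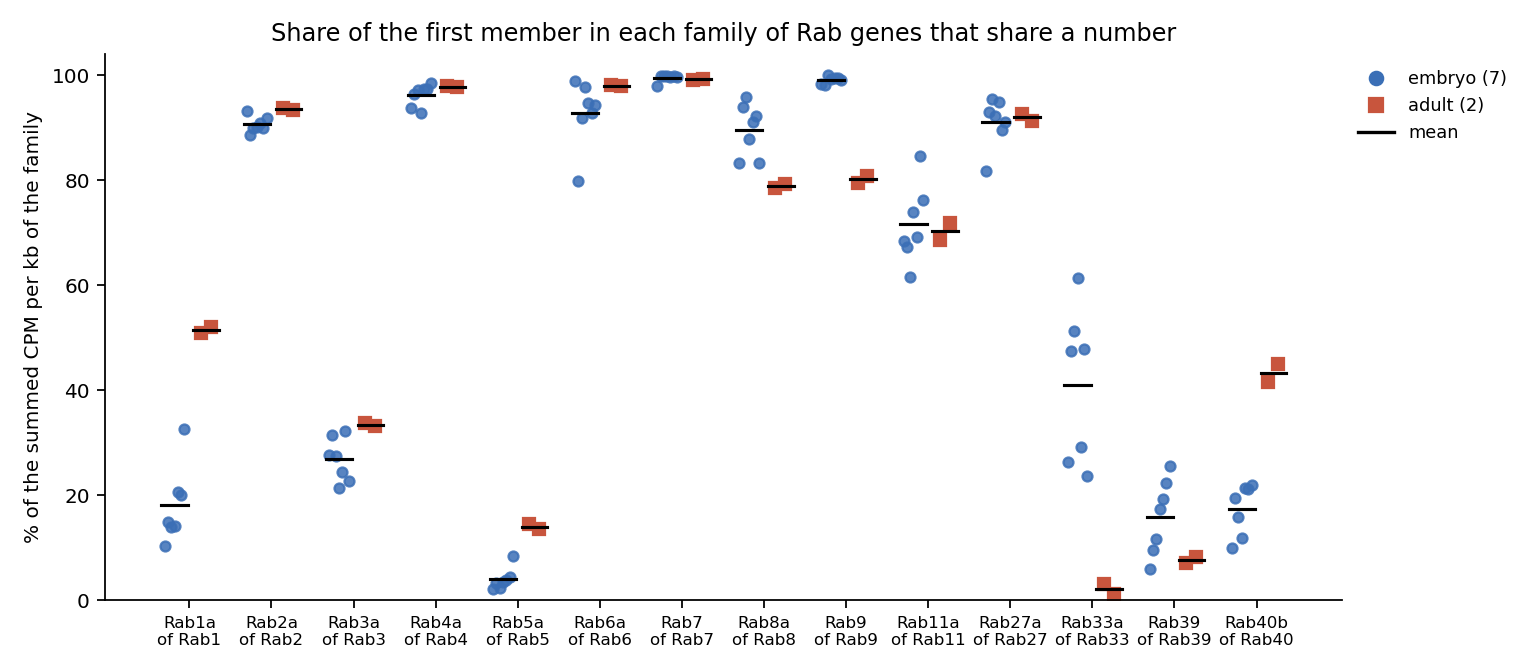
Share (%, vertical axis) of the summed CPM per kb of each of the 14 Rab numbers with several genes that its first gene held, in 7 embryo libraries (circles) and 2 adult libraries (squares), with lines at the means. Rab1a, Rab2a, Rab3a, Rab5a and Rab40b are higher in both adults than in any embryo, Rab2a and Rab3a by little. Rab8a, Rab9 and Rab33a are lower. The shares shown are not corrected for length and GC content.

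The genes that act on Rab proteins were read from 5 lists, in which DESeq2 gave the same numbers of calls as edgeR. Of the 8 genes of prenylation and GDP dissociation, 2 were called, both higher in the adult (25.0%, against 14.6% of all genes), with a median of 0.27. These were the escort protein genes Chm and Chml. Chm measured 2.52, 9.27 and 14.6 CPM in the embryos and 32.8 and 37.3 CPM in the adults, a log2 fold change of 2.21 ± 0.51 (adjusted p = 0.00263). Chml measured 1.24, 1.55 and 4.18 CPM and 11.2 and 5.96 CPM, at 2.05 ± 0.49 (adjusted p = 0.00306). Their adults lay above all embryos, and after the correction neither passed, at 0.97 ± 0.38 (adjusted p = 0.0541) and 0.34 ± 0.46 (adjusted p = 0.563).

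Effectors of Rab3 and Rab27, which tie granules to the cytoskeleton and the release site, were mostly higher in the adult. Of 13 genes 12 were tested (Sytl5 was too low), of which 7 were called, all higher in the adult (58.3%, against 14.6% of all genes), with a median of 2.14. The corrected fit called 6, with a median of 1.74. Sytl4, encoding granuphilin, a Rab27 effector on dense-core granules, measured 7.76, 9.38 and 23.5 CPM in the embryos and 245 and 226 CPM in the adults, a log2 fold change of 4.26 ± 0.33 (adjusted p = 5.00e-07). Exph5, another Rab27 effector, measured 0.0676, 0.326 and 1.19 CPM and 7.47 and 7.70 CPM, at 3.81 ± 0.73 (adjusted p = 7.06e-04). Both adults were above all embryos for these genes. Sytl1, a synaptotagmin-like Rab27 effector, measured 4.17, 6.38 and 14.6 CPM and 64.9 and 53.6 CPM, at 3.01 ± 0.36 (adjusted p = 1.98e-05). Rims2, a Rab3 effector of release sites, measured 4.66, 6.14 and 9.89 CPM and 48.8 and 46.2 CPM, at 2.77 ± 0.31 (adjusted p = 1.00e-05). All 4 genes were called in the corrected fit as well, at 3.85, 2.84, 3.40 and 2.11.

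Of the 29 exchange factors 4 were called higher in the adult (13.8%, against 14.6% of all genes) and 2 in the embryo (6.90%, against 11.3%), with a median of 0.56. Dennd4c and Dennd4a, exchange factors for Rab10, measured 1.61, 2.80 and 6.45 and 1.83, 3.48 and 6.49 CPM in the embryos and 31.2 and 31.3 and 33.8 and 33.5 CPM in the adults. Their log2 fold changes were 3.22 ± 0.39 (adjusted p = 2.18e-05) and 3.07 ± 0.38 (adjusted p = 2.19e-05). Dennd1c, of the connecdenn family, measured 12.6, 23.3 and 36.2 CPM and 1.60 and 3.35 CPM, at -3.23 ± 0.52 (adjusted p = 2.04e-04). Rab3il1, an exchange factor for Rab8, measured 39.7, 59.3 and 93.6 CPM and 6.57 and 8.74 CPM, at -3.02 ± 0.40 (adjusted p = 4.60e-05). The first pair was higher in both adults and the second pair in all embryos. In the corrected fit Dennd1c and Rab3il1 were still called (-2.99 and -3.62), whereas Dennd4c and Dennd4a were at 1.57 and 1.26, and the list had 0 calls higher in the adult (7 genes at an unadjusted p below 0.05 without a fold threshold) and a median of -0.26. Madd, the exchange factor of Rab3 and Rab27, was chosen after its values were seen. It measured 11.7, 24.3 and 33.2 CPM and 141 and 141 CPM, at 2.67 ± 0.31 (adjusted p = 1.38e-05), and 1.95 ± 0.22 after the correction, just short of a fold change of 4.

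Of the 36 GTPase activating proteins 6 were called, all higher in the adult (16.7%, close to the 14.6% of all genes), with a median of 0.58. The largest change was that of Tbc1d8b, at 0.811, 1.68 and 3.91 CPM in the embryos and 42.7 and 50.1 CPM in the adults, a log2 fold change of 4.42 ± 0.48 (adjusted p = 8.42e-06). Rabgap1l measured 1.46, 2.62 and 6.63 CPM and 32.2 and 34.3 CPM, at 3.13 ± 0.46 (adjusted p = 1.00e-04). Tbc1d9 and Tbc1d8 stood at 2.84 ± 0.41 (adjusted p = 9.05e-05) and 2.79 ± 0.36 (adjusted p = 3.32e-05), from 2.54, 3.81 and 8.92 and 2.48, 4.996 and 7.18 CPM in the embryos to 35.6 and 36.2 and 34.0 and 33.7 CPM in the adults. All 4 were higher in both adults than in any embryo. The corrected fit called 3 of the list, Tbc1d8b, Tbc1d9 and Tbc1d8 (3.20, 2.25 and 2.51), with Rabgap1l at 1.50 and a median of -0.04. Rab3gap1 and Rab3gap2, the subunits of the enzyme that acts on Rab3, were chosen after their values were seen and were not called. Rab3gap1 measured 21.3, 39.6 and 45.5 CPM and 107 and 122 CPM, at 1.71 ± 0.28 (adjusted p = 2.33e-04), and Rab3gap2 19.0, 28.4 and 31.6 CPM and 92.2 and 84.8 CPM, at 1.80 ± 0.25 (adjusted p = 7.14e-05). After the correction Rab3gap1 was at 1.24 ± 0.18 (adjusted p = 2.07e-04), and Rab3gap2 no longer passed, at 0.47 ± 0.23 (adjusted p = 0.105).

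Of the 11 effectors of Rab4, Rab5 and Rab11, which work on endosomes, 4 were called, all higher in the adult (36.4%, against 14.6% of all genes), with a median of 1.35. Eea1, the tether of early endosomes, measured 1.22, 3.35 and 9.45 CPM in the embryos and 29.5 and 32.9 CPM in the adults, at 2.92 ± 0.49 (adjusted p = 2.74e-04). Appl1, of an early endosomal compartment, measured 11.3, 19.7 and 35.8 CPM and 103 and 129 CPM, at 2.46 ± 0.35 (adjusted p = 8.06e-05). Rabep1, encoding rabaptin-5, measured 8.16, 14.4 and 22.2 CPM and 78.8 and 69.2 CPM, at 2.36 ± 0.33 (adjusted p = 7.26e-05). Both adults exceeded all embryos in each case. Rab11fip2, an adaptor of recycling endosomes, measured 3.09, 5.36 and 10.6 CPM and 31.9 and 30.6 CPM, at 2.30 ± 0.38 (adjusted p = 2.28e-04). In the corrected edgeR fit 0 of the 11 were called, 5 were at an unadjusted p below 0.05, 4 passed the adjusted p, and the median was 0.33. The regulators have long transcripts, with a median of 4928.5 bases against 2969 over all genes tested, and of the 5 lists only the effectors of Rab3 and Rab27 kept a corrected median above 1.

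**Figure D5:**
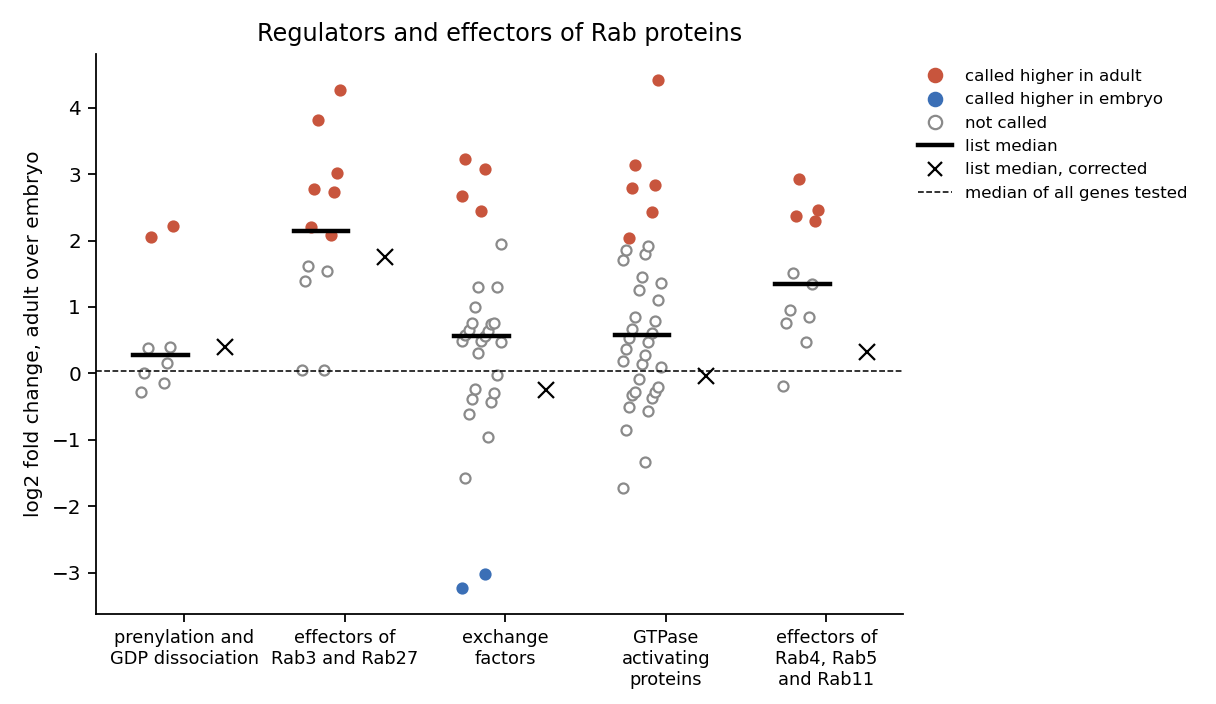
Log2 fold change (adult over embryo, vertical axis) of the genes tested in 5 lists of regulators and effectors of Rab proteins, 7 embryo against 2 adult libraries. Circles are genes, filled where called, bars are list medians, crosses are list medians in the corrected fit, and the dashed line is the median of all genes tested.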

How the data were processed

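RNA was measured in 7 Rathke's pouches and 2 adult anterior pituitaries by paired-end sequencing of poly(A) libraries that keep the strand. The deposited counts per gene were made by the authors with Trimmomatic 0.39 and STAR 2.7.5b on mm10 with Ensembl 96 (GENCODE M21). They are raw counts of uniquely mapped read pairs, of which the column for the strand of the transcript was used, and all 55450 identifiers matched the annotation. Reads shared by copies of a gene were left out in that counting, so genes with close copies may be undercounted. Rab43 and Rab4b, which share over 50% of their exon bases with another gene on the same strand (75.3 and 65.0%), are uncertain.

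The members, the roles, the lists of regulators and the markers were chosen with earlier results of these data known. Genes whose mean count reached 5 were fitted by stage in edgeR 4.0.16 (R 4.3.3) with TMM scaling and the quasi-likelihood test, and adjusted p-values are Benjamini-Hochberg values over all 19371 genes. The SE is the log2 fold change divided by the square root of F. Genes were called at an adjusted p below 0.05 and a fold change above 4. Levels per kb use the merged exon length. The correction used splines with 4 degrees of freedom on transcript length and GC content, fitted in each library over genes whose mean count reached 50, as offsets. The fits were tested on simulated data. There a length trend stronger than in these libraries gave many false calls in the uncorrected fit and few in the corrected one. That trend was of the form that the correction removes, and the simulated spread was lower than that of these data. The simulation therefore serves as a check of the code and does not show which fit is nearer the truth here. The calls named are those of the uncorrected fit unless the corrected one is mentioned. Alternatives were DESeq2 1.42.0, other scaling, filters, strand and fold thresholds, libraries left out and a replicate block. Tables and plots used Python 3.11.15, numpy 2.4.6, pandas 2.3.3 and matplotlib 3.10.9.

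Named were all secretory Rab genes, in each direction the 5 other Rab genes with the largest log2 fold change among those at an adjusted p below 0.05, a mean count of at least 100 and separate groups, the 5 most abundant Rab genes per kb at each stage, up to 4 called genes of each list with the largest changes, and the markers. Any other gene whose values are given was chosen after they were seen. For the Rab genes named by fold change, separate groups were a condition of the choice and not a further result. A marker of the Rathke's pouch is not reported here.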

Additional observations from a re-analysis of the deposited data

Results flagged for a closer look

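In 61 sets of values over the 7 embryos, 4 held an embryo whose gap to the nearest other embryo, as a part of the whole range, was above Dixon's 95% critical value, which chance alone exceeds in about 1 set in 20. Rab10 stood at 127 CPM in embryo 7, against 68.4 to 92.0 CPM in the other embryos. Rab5a stood at 56.4 CPM in embryo 7, against 9.96 to 29.5 CPM in the others. Rab6b, a neuronal Rab of the Golgi, stood at 19.9 CPM in embryo 2, against 1.10 to 7.89 CPM in the others. Embryo 2 was also the embryo with the highest sum of neuronal markers (304 CPM). It was the highest as well for the endothelial, macrophage, mesenchymal and posterior lobe sums, and the lowest for the Rathke's pouch sum. Rab7b stood at 2.56 CPM in embryo 1, against 0.423 to 1.06 CPM in the others. These 4 genes were chosen after their values were seen. The part of cell composition in these values was not tested.

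Counts on the strand opposite to the transcripts, which the comparisons did not use, amounted to 0.504% of the counts on the transcript strand over all 59 Rab genes, and to 0.432 to 0.664% in single libraries. These were above the limit that a count of 0 allows.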

How the results depend on the processing

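The 10 calls were kept, as counts of shared genes, under DESeq2, other scaling, unstranded counts, filterByExpr, no filter, and without any 1 of the 9 libraries, with Rab31 or Rab39b added under some. Of the 10, 8 were kept where at least 10 counts were required in every library (Rab33a and Rab9b were not tested), 7 with the correction and 6 in the test against a fold of 4. Where 1 adult was left out, the lone adult was assumed to vary like the embryos. Of the values of the named genes under the alternatives, 2211 of 2397 (105 genes) kept their direction and side of the thresholds, 72 no longer passed, 85 newly passed and 29 changed sign. Low counts limit Rab9b, Rab33a and Rab37. For values that moved, the cause was not tested beyond what the setting itself changes.

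Of all genes, 5001 were called, 2634 with at least 10 counts in every library, 1744 when testing against a fold of 4, 9948 with no fold threshold and 8960 with a fold above 2. Rab genes higher in the adult numbered 4, and 19 with no fold threshold and 15 with a fold above 2. Those higher in the embryo numbered 6, 2 when testing against a fold of 4, and 12 both with no fold threshold and with a fold above 2. The adult secretory share was 17.6% without length scaling. The median of the other Rab genes (-0.00365) was 0.0281 with DESeq2 and also with its size factors in edgeR, 0.192 with library size alone, 0.124 corrected, and -0.111 to 0.0724 with single libraries left out (above 0 without embryo 2, embryo 7 or adult 2).

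With the correction, log2 fold changes reversed to -0.576 (Rab14), -0.900 (Rab30), -0.939 (Rab22a), 1.08 (Rab25), -0.396 (Tshb), -0.216 (Kdr), 1.09 (C1qa), 0.278 (C1qb), -1.02 (Dcn), 0.163 (Pmel) and 0.349 (Tubb3). With library size alone they reversed to 0.0439 (Rab25) and 0.0489 (C1qa). With single libraries left out, signs turned for C1qa (-0.438 to 0.0571, without embryo 2 or adult 1), Col1a2 (-0.726 to 0.0515, without adult 2), Dcn (-0.0529 to 0.472, without adult 1) and Tubb3 (-0.975 to 0.0203, without embryo 2 or adult 2).

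Deviations of libraries with the same number correlated at 0.0303 and -0.0145, which gave no sign of a pairing by number. The deviations of the 2 adults mirror each other around their mean, so these are not separate checks. A batch shared by number was not tested. With the replicate block on replicates 1 and 2, 5 Rab genes were called higher in the adult and 4 in the embryo (Rab15 and Rab37 lost, Rab39b gained), and 4151 of all genes. The same 4 libraries without the block, a setting chosen after seeing the data, gave the same Rab genes lost and gained and 3975 calls over all genes. The secretory median was 1.11 with the block and 1.10 without it. Reversed with the block, and without it on these libraries, were Tshb (-0.00188 and -0.00930), Kdr (-0.144 and -0.0557), Plvap (-0.258 and -0.288), Dcn (-0.0788 and -0.283) and Pmel (1.34 and 0.472).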

Other observations

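The embryos did not share the extreme values evenly. Among the 23 Rab genes with both adults above all embryos, embryo 7 was the highest embryo for 12 (52.2%) and embryo 1 the lowest for 7 (30.4%). Among all 6366 genes with that order, the corresponding shares were 35.0 and 39.8%. Among the 15 Rab genes with both adults below all embryos, embryo 7 was the highest for 0 and the lowest for 3 (20.0%), against 4.47 and 44.3% of the 5082 genes with that order. Embryo 1 was the lowest for 8 of these 15 Rab genes (53.3%), against 17.5% of all genes. The embryo most often nearest to the adults was thus embryo 7 among all genes in both directions and among the Rab genes higher in the adult, and embryo 1 among the Rab genes lower in the adult. The erythroid sum of embryo 7 (1728 CPM) was the lowest of the embryos and that of embryo 1 (68370.0 CPM) among the highest. The sum of endocrine markers in embryo 7 (1322 CPM) was below the embryo median of 1813 CPM. Single endocrine markers went both ways, embryo 7 being the lowest embryo for Cga and the highest for Pou1f1, Chgb and Fshb. It was also the lowest for Prl, whose 2 to 15 counts in the embryos are too few to rank them. The uneven sharing of extreme values was noticed after the values were seen, and the part of cell composition in it was not tested.

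Of the 59 Rab genes 4 lie on the X chromosome, Rab9, Rab9b, Rab33a and Rab39b, of which Rab9 was named after its values were seen. Rab9b and Rab39b were higher in both adults than in any embryo, and Rab9 and Rab33a were lower. The sex of each library was not given, and no comparison by sex was made.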
